A study of Homo sapiens with 16 samples.

Results

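The regions described here were open chromatin sites that proliferating and senescent fibroblasts had in common but that were not listed once FOXF1 and FOXF2 were knocked down in senescent cells. Peaks on chromosomes 1 to 22 from 10 paired-end ATAC-seq lists were merged wherever they overlapped by at least 1 bp, which gave 149504 regions. Of these, 48397 held a peak in both lists of proliferating cells and in all 4 lists of control senescent cells and are called shared regions. The members are the 819 shared regions with a peak in neither FOXF1/2 knockdown list, 1.69% of the shared regions and 0.548% of all regions. The members were chosen by measured values, namely peak presence in the Pro and Sen lists and absence from the siFOXF1/2 lists, so that absence is not a finding.

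All cells were IMR-90(ER:Ras), human lung fibroblasts carrying an inducible oncogenic Ras. Proliferating cells (Pro, 2 paired-end libraries) received a control siRNA and no 4-hydroxytamoxifen (4-OHT). All other groups received 100 nM 4-OHT for 6 days, which drives the line into oncogene-induced senescence, and an siRNA: control (Sen, 4 paired-end and 2 single-end libraries), FOXF1/2 (siFOXF1/2, 2 paired-end), JUN-family members (2 paired-end), p300/CBP (sip300/CBP, 2 single-end) or p65 (sip65, 2 single-end). The JUN-family libraries are titled for cJUN and JUND, but their treatment label names JUNB as well. The Pro libraries carry the senescent cell type label; their titles and the lack of 4-OHT put them in the proliferating group. All libraries come from 1 cell line, and no knockdown strength can be read from peak lists. Whether replicates came from separate cultures is not labelled, so any spread between them may be technical.

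ATAC-seq marks open chromatin by the sites where a transposase can insert adapters, and a peak is a local excess of such insertions. FOXF1 and FOXF2 are forkhead transcription factors of mesenchymal cells, including lung fibroblasts, and bind DNA at enhancers. p300 and CBP are acetyltransferases that enhancer-bound factors recruit and that acetylate histones there. JUN proteins form the AP-1 factor, which occupies many fibroblast enhancers, and p65 (RELA) is the NF-kB subunit behind much inflammatory gene expression in senescent cells.

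The paired-end lists held 58955 to 105828 peaks on these chromosomes and the single-end lists 17707 to 69760. The lists carry no read totals, so depth was read as the genome-wide background coverage recovered from each list, which was 1.74 to 3.08 for the paired-end group and 0.195 to 0.475 for the single-end group. The height of a peak is its summit pileup divided by that background. The detection floor, the height a site needs to enter a list, was 4.58 to 6.31 times background for paired-end and 14.7 to 25.7 times for single-end lists, so the latter show only strong sites. Heights were compared between libraries of the same layout only.

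The members were narrow sites of modest height. Their median width was 475 bp, against 784 bp over all shared regions, and the width ran from 200 to 2767 bp. Their median height was 18.4 and 20.2 in the 2 Pro libraries and 19.6, 19.2, 18.3 and 19.1 in Sen replicates 1 to 4, where all shared regions stood at 37.3 and 37.9 in Pro and between 35.5 and 41.2 in Sen. The 6 libraries thus gave nearly the same level for the members, and in each of them the members' median lay below that of all shared regions. Strength was taken as the lowest −log10 q over the 6 Pro and Sen lists, with a member median of 15.1 against 39.4 for all shared regions.

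**Figure D1:**
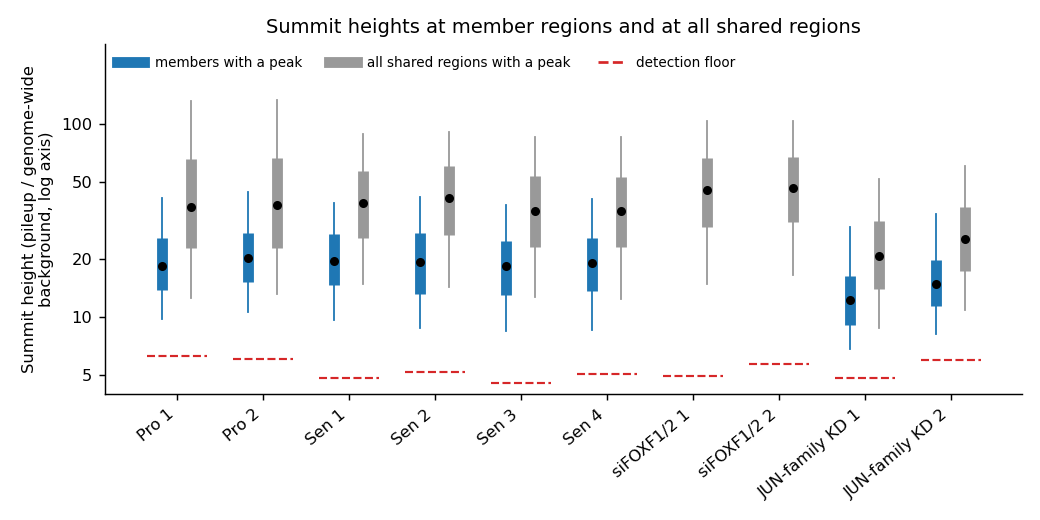
Summit height over genome-wide background (log axis) in the 10 paired-end libraries for members (blue) and all shared regions (grey) that carry a peak; thick bars span the quartiles, thin lines the 5th to 95th percentile, dots the medians, and red dashes the detection floor of each list. Member medians lie between 18.3 and 20.2 in Pro and Sen, no member has a siFOXF1/2 peak by the rule, and the members with a JUN-family knockdown (KD) peak have medians of 12.3 and 14.9.

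Split into 5 equal bins of strength over all shared regions, 559 members (68.3%) fell in the weakest bin, where they made up 5.78% of the regions. Another 202 fell in the second bin, 49 in the third, 9 in the fourth and 0 in the strongest. Weak sites lie nearest the detection floor, and how far this shaped the membership was not tested. Members were narrower than the other shared regions within the bins too, with a median of 480 bp against 683 bp in the weakest bin and 456 bp against 686 bp in the next. The local background around them was also lower in these 2 bins, 1.54 and 1.84 times the genome-wide level in Sen against 1.91 and 2.28 times for the others, but not in the third bin, at 2.87 against 2.68 times.

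How far a member stood above the siFOXF1/2 floor is given by the height-to-floor ratio, the lowest Sen height divided by the higher floor of the siFOXF1/2 lists. Where the local background exceeds the genome-wide level the true floor is higher, so this ratio is not by itself a limit on the fall. With the floor raised to the local background that Sen showed at each region, the ratio had a median of 1.72 over the members. It reached 2 in 263 of them (32.1%) and lay under 1 in 36, whose absence sets no fall at all. Over all shared regions its median was 2.81 and its lower quartile 2.06, so the members stood nearer the floor. With the genome-wide floor the median was 2.66 over members and 5.61 over all shared regions. In that setting 585 members (71.4%) reached 2, and these 585 made up 1.21% of all shared regions. This is the contrast the rule used and is given as a description.

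The strongest member lay at chr8:13225983-13226447 (hg19). Its height was 81.5 and 78.9 in Pro and 62.3, 69.6, 62.1 and 65.1 in Sen, so both Pro libraries lay above all Sen libraries. It stood in a region of high local background, 10.4 times the genome-wide level, and its height-to-floor ratio was 2.55 with the local floor and 10.9 with the genome-wide floor. The member at chr15:35747423-35747780 had the highest ratio with the local floor among the 8 strongest members, 4.18. Its heights were 35.6 and 32.4 in Pro and 32.0, 30.4, 37.0 and 35.1 in Sen, which overlapped.

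At chr1:27179670-27179898, the second strongest member, the summit fell on the same base in all 6 Pro and Sen lists, as it did in 3 of the 819 members and in 1.26% of all shared regions. Heights were 48.2 and 51.6 in Pro and 39.95, 48.0, 46.1 and 47.9 in Sen, and both Pro values lay just above the Sen values. The member at chr1:174004694-174004980 stood at 45.9 and 49.5 in Pro and at 62.0, 68.0, 60.8 and 61.6 in Sen, with every Sen library above both Pro libraries.

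At chr6:53360391-53360765 the heights were 56.2 and 70.3 in Pro and 54.4, 52.4, 44.8 and 49.5 in Sen, with every Pro value above every Sen value. A further strong member, chr6:148920872-148921471, stood at 33.3 and 38.4 in Pro and 32.4, 28.8, 28.8 and 36.6 in Sen, and the groups overlapped.

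The 6 single-end libraries played no part in choosing the members and share no library with the rule. They listed few members: 96 (11.7%) had a peak in both single-end Sen lists and 559 in neither, where 61.2% of all shared regions were in both and 21.2% in neither. After p300/CBP knockdown, 63 of these 96 members (65.6%, 95% Wilson interval 55.7 to 74.4) had no peak in either list, and 21 kept one in both. Over all shared regions in both single-end Sen lists, 10.5% had no peak after p300/CBP knockdown and 75.1% kept both. The interval covers counting error over regions only.

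Per library, 118 and 238 members had a peak in single-end Sen replicates 1 and 2 (64.7% and 75.3% of all shared regions did), and 66 and 37 in sip300/CBP replicates 1 and 2 (69.4% and 55.8%). The Sen lists held 53719 and 66524 peaks and the sip300/CBP lists 69760 and 45808, and the part of list length in these counts was not tested. Both knockdown lists held fewer members than both Sen lists, 51.5 ± 20.5 against 178 ± 84.9 (SD, n = 2 each). With 2 libraries a side, p = 0.333 from the exact permutation test (two-sided) is the lowest value possible, so no difference could have been shown.

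**Figure D2:**
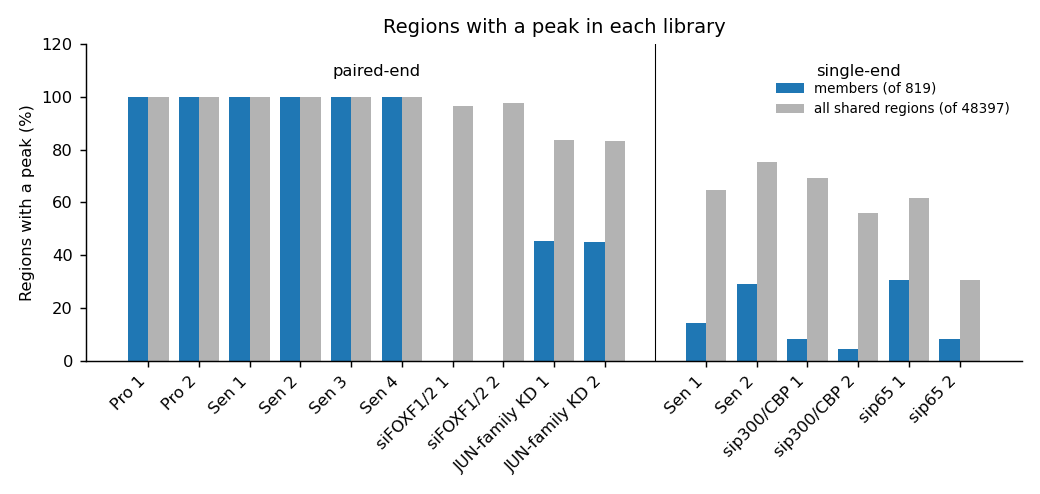
Percentage of the 819 members (blue) and of the 48397 shared regions (grey) with a peak in each library, paired-end on the left and single-end on the right. The rule sets the first 8 libraries for the members; in the others the members' share is 45.4% and 45.1% after JUN-family knockdown (KD), 14.4% and 29.1% in single-end Sen, 8.06% and 4.52% after p300/CBP knockdown and 30.8% and 8.30% after p65 knockdown.

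The members' excess over other shared regions was present in each bin of single-end peak strength. In the weakest of 5 bins, 29 of 40 members (72.5%) had no sip300/CBP peak against 22.7% of the other shared regions, and in the third bin 14 of 22 (63.6%) against 8.50%. The 2 strongest bins held 10 members, of which 5 had no peak. Weighted to the members' spread over the bins, the other shared regions would give 15.5%, so the members' share was 4.22 times theirs. The bins match single-end strength only. In the weakest bin the median width was 442.5 bp for members and 798 bp for the others. The median local background in paired-end Sen was 1.47 and 2.86 times the genome-wide level. A peak was required in both single-end Sen lists but in no knockdown list, and how far this raised the shares was not tested. A member in both Sen lists had reached at least 21.7 times the background in Sen replicate 1, above the floors of 18.9 and 20.4 in the sip300/CBP lists, but only 14.7 times in Sen replicate 2. Against the genome-wide floor, the lower Sen height reached 2 times the higher sip300/CBP floor in 8 of the 63 (12.7%, beside 21.9% of all shared regions without a sip300/CBP peak) and 1 times in 59 (93.7%, beside 96.9%).

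The share without a p300/CBP knockdown peak varied with the libraries used. It was 80.7% of 238 members when single-end Sen replicate 1 was left out, beside 15.6% of all shared regions. It was 76.0% against 22.6% without sip300/CBP replicate 1, and 67.7% against 12.7% without replicate 2. With siFOXF1/2 replicate 2 alone defining the members the share was 46.6% of 208, and with replicate 1 alone it was 71.1% of 256, beside 10.5% of all shared regions in both cases.

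The strongest single-end member without a p300/CBP knockdown peak was chr5:109017941-109018442. Its single-end heights were 69.4 and 46.3 in Sen and 73.3 and 56.4 after p65 knockdown, so the p65 libraries kept the peak at heights overlapping those of Sen while neither sip300/CBP list held one. At chr10:5955531-5956149 the heights were 65.1 and 37.9 in Sen and 70.1 and 61.6 after p65 knockdown, again with no sip300/CBP peak. The lower Sen height was 2.27 and 1.85 times the higher genome-wide floor of the sip300/CBP lists.

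Both sites were higher in paired-end Sen than in Pro. The first stood at 10.3 and 15.7 in Pro and 21.7, 20.01, 34.0 and 42.5 in Sen, and the second at 11.5 and 21.2 in Pro and 27.2, 27.6, 31.7 and 36.2 in Sen. At 2 other leading sites Pro and Sen were closer. These were chr13:47273063-47273516, with 18.4 and 17.2 in Pro and 18.6, 16.4, 18.6 and 21.0 in Sen, and chr7:106779338-106779802, with 20.7 and 24.8 in Pro and 21.4, 18.8, 18.3 and 18.3 in Sen. Their single-end Sen heights were 56.4 and 31.6 at the first and 52.0 and 42.1 at the second, and sip65 replicate 1 kept a peak at both, at 35.1 and 47.8.

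Of the 8 strongest members, 5 were in both single-end Sen lists. Among these chr13:34086966-34087338, chr6:148920872-148921471 and chr1:174004694-174004980 had no sip300/CBP peak and chr18:25864170-25864645 had it in 1 list. The site at chr1:174004694-174004980 stood at 52.0 and 56.8 in single-end Sen and at 86.1 and 113 after p65 knockdown, with both p65 libraries above both Sen libraries. Only chr1:27179670-27179898 kept its peak in both sip300/CBP lists, at 98.4 and 78.3 beside 91.1 and 56.8 in Sen.

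After p65 knockdown the share of members without a peak lay nearer that of the other shared regions. It depended on which sip65 library was left out, as given below. Of the 96 members in both single-end Sen lists, 32 (33.3%, 95% Wilson interval 24.7 to 43.2) had no peak in either sip65 list and 19 kept it in both, where all shared regions gave 14.8% and 45.3%. At the members' strength the other shared regions would give 22.3%. In the weakest bin the shares were 42.5% of 40 members and 32.8% of the others, and in the strongest bin, with 3 members, 0 were lost. Against the genome-wide floor, the lower Sen height reached 2 times the higher sip65 floor in 0 of the 32 (beside 5.12% of all shared regions without a sip65 peak) and 1 times in 22 (68.8%, beside 80.04%). A ratio to the genome-wide floor is not by itself a limit on the fall.

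The 2 p65 libraries differed. Replicate 1 held 252 members, more than either single-end Sen library, from a list of 43377 peaks, and replicate 2 held 68 from 17707 peaks. These lists held 61.8% and 30.5% of all shared regions, beside 64.7% and 75.3% in single-end Sen. Without sip65 replicate 1, 78.1% of the 96 members had no peak, beside 53.3% of all shared regions, and without replicate 2 these shares were 35.4% and 16.2%. Member counts of 160 ± 130 after p65 knockdown and 178 ± 84.9 in Sen (SD, n = 2 each) gave p = 1 by the exact permutation test (two-sided). Of the 559 members in neither single-end Sen list, 104 (18.6%) had a peak in sip65 replicate 1 and 22 (3.94%) in replicate 2, against 13.5% and 1.45% of other such shared regions. The same 559 members had a peak in sip300/CBP replicates 1 and 2 in 3.40% and 1.61% of cases, against 28.9% and 11.8% of the other shared regions.

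The p300/CBP and p65 knockdowns were separate libraries. Of the 96 members, 21 had no peak in any of the 4 lists, where 2.96% of all shared regions in both single-end Sen lists had none. A further 13 members had no sip300/CBP peak but kept both sip65 peaks, as did 2.92% of those shared regions. These 2 comparisons share the single-end Sen libraries, so the values are set side by side and not read as an overlap.

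At 4 members every single-end list held a peak: chr21:10818227-10820229, chr10:115056913-115057498, chr22:27857460-27857816 and chr6:31528104-31528469. At chr21:10818227-10820229 the paired-end height was 34.4 and 32.4 in Pro, 9.99 and 6.40 in Sen replicates 1 and 2, 32.4 and 37.8 in Sen replicates 3 and 4, and 64.6 and 53.7 after JUN-family knockdown. Sen replicates 1 and 2 thus lay below every other library with a peak, and the height-to-floor ratio was 0.822 with the local floor, so its absence from the siFOXF1/2 lists sets no change. At chr10:115056913-115057498 the JUN-family knockdown libraries, at 38.0 and 35.8, lay above all Sen libraries, at 15.8, 10.8, 18.6 and 20.3. At chr22:27857460-27857816 they stood at 66.2 and 63.2 beside 37.2, 28.8, 53.6 and 50.7 in Sen, and Sen replicates 1 and 2 lay below replicates 3 and 4. At chr6:31528104-31528469 they stood at 23.4 and 21.4 beside 21.7, 28.0, 32.7 and 38.6 in Sen, at the low end of the Sen range.

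**Figure D3:**
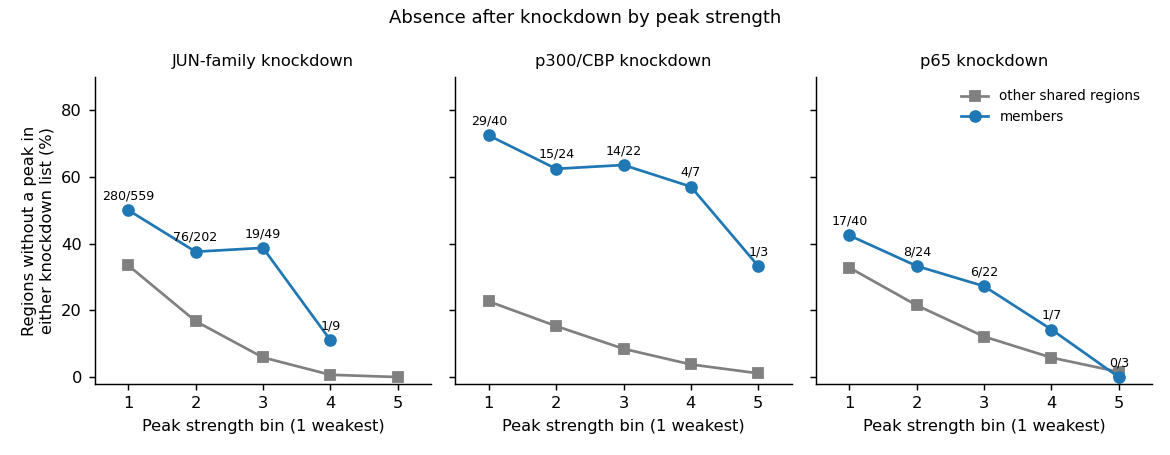
Percentage of members (blue, with counts) and of other shared regions (grey) without a peak in either knockdown list, in 5 bins of peak strength (1 is the weakest), for JUN-family, p300/CBP and p65 knockdown; strength is the lowest −log10 q over Pro and Sen lists in the first panel and over the single-end Sen lists in the other panels. Members lie above the other shared regions in each bin that holds members, except the strongest p65 bin, where 0 of 3 were absent; strong bins hold few members.

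JUN-family knockdown was profiled in paired-end libraries, and its comparison shares the Sen lists with the rule. The knockdown lists held 372 and 369 of the 819 members (45.4% and 45.1%, beside 83.7% and 83.3% of all shared regions). No peak in either list was found for 376 members (45.9%, where 11.7% of all shared regions had none). A peak in both was kept by 298 (36.4%, beside 78.7%) and in 1 by 145 (17.7%, beside 9.60%). Weighted to the members' strength the other shared regions would give 27.4%, so the share among members was 1.68 times theirs. The bins match strength only. In the weakest bin the median width was 480 bp for members and 683 bp for the others, and the median local background in Sen was 1.54 and 1.91 times the genome-wide level. With all lists cut to equal length the share fell to 20.05% of 1631 members, beside 5.54% of all shared regions. In the weakest bin it was 50.1% against 33.5%, and in the third bin 19 of 49 members (38.8%) against 5.91%. Leaving out knockdown replicate 1 or 2 gave 54.9% or 54.6%, beside 16.7% and 16.3% of all shared regions.

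Among the 298 members with both JUN-family peaks, both heights lay below all 4 Sen heights in 138 (46.3%), beside 85.3% of all shared regions with both peaks. They lay above all Sen heights in 26 (8.72%), beside 1.8%. Only sites that stayed above the floor enter these counts, and heights after JUN-family knockdown were lower across the whole set of regions held in all 10 lists, with medians of 22.1 and 26.9 against 42.1 to 48.0 in Sen.

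The strongest members with both JUN-family peaks were not alike. At chr15:35747423-35747780 the knockdown heights of 30.8 and 36.8 fell within the Sen range of 30.4 to 37.0. At chr1:27179670-27179898 they were 32.5 and 41.3 beside 39.95 to 48.0 in Sen, which overlapped. At chr13:34086966-34087338 they were 26.6 and 29.8, within the Sen range of 25.6 to 41.7. At chr8:13225983-13226447, the other of the 4 strongest, they were 29.2 and 32.3, below every Sen value. The remaining such sites among the 8 strongest members also lay below every Sen value. These were chr6:148920872-148921471, at 12.0 and 16.4, and chr6:53360391-53360765, at 13.6 and 22.9. At chr1:174004694-174004980 they were 26.6 and 28.8, less than each of the Sen values of 60.8 to 68.0.

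Without a JUN-family peak the strongest member was chr18:25864170-25864645, at 28.7 and 31.3 in Pro and 31.3, 28.8, 22.9 and 29.2 in Sen, and in single-end libraries it kept both sip65 peaks at 35.1 and 51.3. It was followed by chr5:9781725-9782371, at 39.6 and 43.5 in Pro and 32.7, 42.8, 26.8 and 28.4 in Sen, which no single-end list held. The member at chr9:113409713-113410111 stood at 65.4 and 69.3 in Pro and at 48.2, 37.2, 39.9 and 49.9 in Sen, with both Pro values above all Sen values. It had a peak in both sip300/CBP lists, at 49.2 and 54.5, and in neither sip65 list. At chr5:130482977-130483452 there was no JUN-family and no sip300/CBP peak, beside single-end Sen heights of 34.7 and 39.98.

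Absence after p300/CBP knockdown was also split by what the JUN-family lists held. Among members in both single-end Sen lists, 17 of the 24 without a JUN-family peak (70.8%) also lacked a sip300/CBP peak, beside 28.7% of all shared regions of that class. The counts were 12 of 19 (63.2%, beside 24.3%) for a peak in 1 JUN-family list and 34 of 53 (64.2%, beside 8.72%) for a peak in both. The difference between these shares was not tested.

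The members can be set beside the 4639 regions that had a peak in all 4 Sen lists, in neither Pro list and in neither siFOXF1/2 list. JUN-family knockdown left 83.5% of those without a peak, and 81.8% when weighted to the members' Sen strength, against 45.9% of the members. For p300/CBP knockdown the shares were 63.3% of the 629 such regions in both single-end Sen lists and 65.6% of the 96 members. For p65 knockdown they were 54.1% and 33.3%. All of these are counts over regions of the same libraries and the differences carry no test. The Pro lists (63860 to 64904 peaks) and JUN-family lists (58955 to 61426) were shorter than the paired-end Sen lists (96512 to 100656). Absence from Pro therefore does not by itself show that a site opened on senescence, and the part of list length in these shares was not tested.

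At the members, which the rule required to have a peak in both states, neither proliferating nor senescent cells were higher throughout. The log2 ratio of mean Pro height to mean Sen height had a median of 0.081 with quartiles of -0.36 and 0.47, beside 0.17, -0.29 and 0.54 over all shared regions. The median was -0.013 when libraries were scaled on the regions held in all 10 lists, and -0.076 and -0.083 without Pro replicate 1 and 2, so no direction can be given. Both Pro heights lay above all 4 Sen heights in 232 members (28.3%, where 40.9% of all shared regions did) and below all of them in 191 (23.3%, beside 22.5%). The means differed by at least 2-fold in 55 members with Pro higher (6.72%, beside 3.9%) and in 35 with Sen higher (4.27%, beside 5.8%).

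**Figure D4:**
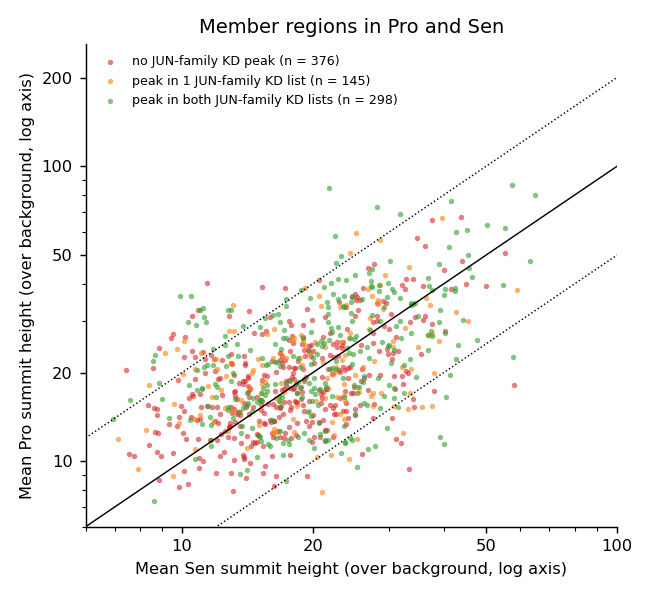
Mean Pro against mean Sen summit height over background for the 819 members (both axes log), coloured by the number of JUN-family knockdown (KD) lists with a peak. The solid line marks equal heights and the dotted lines a 2-fold difference, with 55 members above and 35 below the dotted lines. The 3 colours overlap but differ in level. Median heights are 17.5 in Pro and 17.6 in Sen without a JUN-family peak, 19.9 and 20.6 with 1, and 22.1 and 21.2 with both.

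The members with the highest Pro to Sen ratio were chr2:42133492-42134018, chr20:9354834-9355423 and chr14:59051041-59051607. The first stood at 75.2 and 94.0 in Pro against 23.8, 10.8, 27.1 and 25.3 in Sen, the second at 32.7 and 39.9 against 11.0, 8.00, 10.5 and 10.1, and the third at 37.3 and 43.0 against 15.8, 8.80, 12.4 and 8.57. At all 3 both Pro libraries lay well above the Sen libraries, and none was listed in single-end Sen. Their height-to-floor ratios for FOXF1/2 knockdown were between 1.04 and 1.19 with the local floor, as their lowest Sen heights were 10.8, 8.00 and 8.57.

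The lowest ratios belonged to chr5:83310776-83311086, chr14:77825523-77826181 and chr6:127526115-127526500. Heights were 9.76 and 9.10 in Pro against 33.1, 32.4, 36.3 and 31.2 in Sen at the first, and 11.5 and 12.6 against 43.7, 40.4, 37.0 and 35.5 at the third. At chr14:77825523-77826181 they were 9.18 and 13.7 against 41.0, 44.8, 39.9 and 34.7, and after JUN-family knockdown 7.47 and 10.9. The Pro heights at these sites lay near the Pro floors of 6.31 and 6.07, and at chr14:77825523-77826181 the height after JUN-family knockdown was near that in Pro. It was also near Pro at chr6:127526115-127526500, at 10.1 and 10.9 after JUN-family knockdown, while chr5:83310776-83311086 had no JUN-family peak. All 3 had a peak in 1 single-end Sen list and in no sip300/CBP list. Their height-to-floor ratios with the local floor ran from 2.86 to 3.60.

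Peak names have 1 prefix style in Pro, siFOXF1/2 and Sen replicates 1 and 2, and another in the JUN-family knockdown and in Sen replicates 3 and 4. No label calls these batches. With Sen taken from the first style only, both Pro and Sen replicates 1 and 2 held 962 regions that siFOXF1/2 lacked, and with Sen replicates 3 and 4 in their place there were 1537. Sen replicates 1 and 2 lay below replicates 3 and 4 at 145 members (17.7%, beside 13.1% of all shared regions) and above them at 276 (33.7%, beside 47.3%). A mean in replicates 1 and 2 of at most 50% of that in replicates 3 and 4, as at chr21:10818227-10820229, was found at 7 members (0.855%, beside 0.118%). With Sen replicates 1 and 2 alone, 66.0% of 97 members had no p300/CBP knockdown peak, and with replicates 3 and 4 alone 55.1% of 158, beside 10.5% and 10.6% of all shared regions.

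The members were scattered over the genome. Every autosome held between 7 and 91 of them, and 769 of the 819 had no other member within 50 kb. The other 50 formed 25 pairs, so that 6.11% of members had a member within 50 kb, beside 5.53% of the other shared regions. Regions open in all Sen lists but not in both Pro lists that also lacked a siFOXF1/2 peak lay within 50 kb of 30.2% of members and 27.0% of the other shared regions. Regions with no Sen peak and both siFOXF1/2 peaks lay within 50 kb of 37.9% and 35.7%. All of these shares were near those of the other shared regions.

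The share of shared regions that were members ran from 0.394% on chromosome 19 (7 of 1777) to 2.75% on chromosome 18 (29 of 1055). At the series-wide share in each bin of strength, chromosome 19 would hold 20.1 members and chromosome 18 would hold 19.8. On the other 20 autosomes the count was between 0.781 and 1.27 times the number so obtained. These counts follow from the rule and carry no test.

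**Figure D5:**
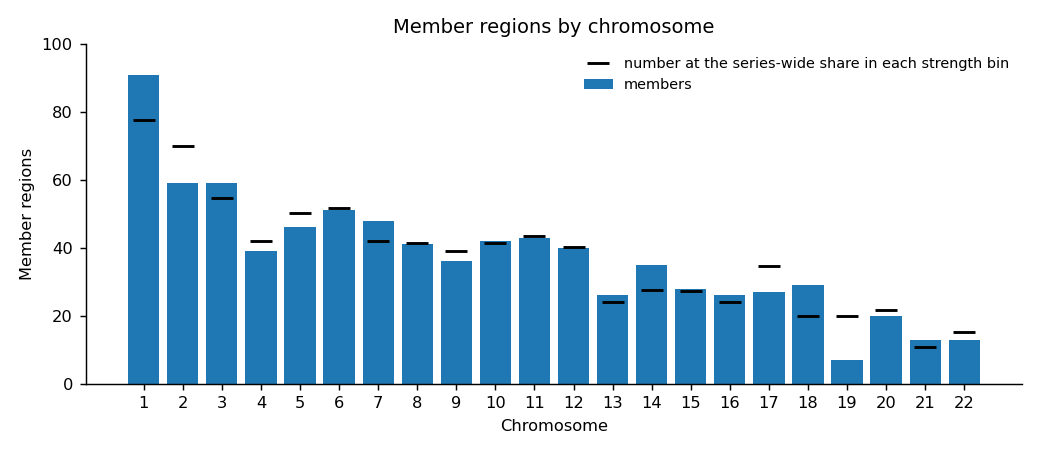
Number of members on each autosome (bars) and the number obtained from the series-wide share of members in each bin of peak strength (black dashes). Chromosome 19 holds 7 members against 20.1 and chromosome 18 holds 29 against 19.8, and on the other chromosomes the count is 0.781 to 1.27 times the dash.

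Among the 25 pairs, those with the strongest sites were named. On chromosome 6 the site at chr6:53360391-53360765 had a neighbour at chr6:53378248-53378816, with heights of 24.1 and 23.3 in Pro and 22.04, 20.4, 20.3 and 17.1 in Sen, and the 18.4 kb span held 3 shared regions. Both JUN-family lists kept the first, at 13.6 and 22.9, and neither kept the second. On chromosome 10 the sites at chr10:97037971-97038500 and chr10:97086065-97086552 lay in a 48.6 kb span with 5 shared regions, and neither had a JUN-family, single-end Sen or sip300/CBP peak. The first had sip65 peaks at 54.2 and 61.6 and the second at 38.3 in replicate 1. On chromosome 14, chr14:73083089-73083534 and chr14:73124012-73124726 were 2 of 4 shared regions in 41.6 kb, and no single-end list held either.

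A peak in 1 of the 2 siFOXF1/2 lists was found at 1299 shared regions (2.68%), more than the members themselves, so the membership depends on both lists. Without siFOXF1/2 replicate 2 there would be 1714 members, and without replicate 1 there would be 1223. Just outside the rule lay chr16:48309723-48310276, with a single siFOXF1/2 peak at −log10 q 4.28 and a height of 5.71, beside 14.1, 16.4, 12.8 and 13.2 in Sen. The next were chr5:14050949-14051383, at −log10 q 4.48, and chr15:71605196-71605649, at 4.61. Just inside lay the weakest members, chr4:38927305-38927964 and chr5:119904512-119904951, both with a strength of 4.47, and chr5:648768-651423, with 4.76.

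The regions with a single siFOXF1/2 peak lay between the members and the rest in the readouts the rule did not use. JUN-family knockdown left 36.3% of them without a peak. In single-end data, p300/CBP knockdown left 153 of 272 (56.3%) without one and p65 knockdown 26.1%. Shared regions with both siFOXF1/2 peaks gave 10.4%, 9.85% and 14.7%, and members 45.9%, 65.6% and 33.3%. Median strength followed the same order, from 15.1 in members through 17.8 to 41.2, so these shares are not at equal strength.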

How the data were processed

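ATAC-seq libraries were sequenced as 75-bp single reads or 35-bp pairs, per the labels' protocols. The submitters' processing notes name hg19, MACS2 2.1.1, Bowtie2 2.3.4.1, SAMtools 1.9 and deepTools 3.1.1, without roles. How reads were shifted and peaks thresholded is not stated there, and duplicate removal is tagged only in the single-end peak names. The authors deposited 1 narrowPeak list per library, so replicates were not pooled, with a fold enrichment ratio and the −log10 of the p-value and q-value per peak; every listed −log10 q exceeds 4.

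Python 3.11.15 with numpy, pandas and scipy 1.17.1 did all computation. Fold and −log10 p follow the MACS2 equations, (pileup + 1) / (background + 1) and a Poisson tail, which gave a whole summit pileup for 100% of peaks (within 0.002 in −log10 p, widened in proportion above 10). The 1st percentile of local background is the genome-wide background, and the floor is the smallest pileup that reaches the lowest listed p there. The strongest peak of a list in a region gives its height. The recovery and merging were tested on simulated data. No read-count model was fitted, and the only tests are exact permutation tests on member counts per single-end library.

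Members and lists were chosen with earlier results of these data known. Named regions are the 8 strongest members, the strongest with and without JUN-family (4 each) or single-end knockdown peaks (4 each), the 3 highest and 3 lowest Pro to Sen ratios, 3 groups chained by gaps of at most 50 kb (ties by strength) and 3 regions on each side of the rule. Coordinates are 1-based hg19. No hg19 sequence or annotation was used here, so no gene, motif or sequence is given, and chromosome X was left out by the rule.

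Alternatives tried were equally long lists, a stricter −log10 q (5 or more), 500 bp windows around summits, coverage of 50% or more of a region by its peak, subsets of Sen, leaving out each replicate and other scalings; the local floor, the scaling of the height-to-floor ratio and the replicate pairing were added after seeing the data.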

Additional observations from a re-analysis of the deposited data

Results flagged for a closer look

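In the 4 paired-end Sen libraries, 36 values were checked for a library far from the other 3, and 3 stood out, where chance alone gives about 1 in 20. At chr13:34086966-34087338 the lowest height, 25.6 in Sen replicate 2, lay far under the other 3, which ran from 39.6 to 41.7. At chr1:174004694-174004980 the highest, 68.0 in Sen replicate 2, lay above values of 60.8 to 62.0. At chr7:106779338-106779802 the highest, 21.4 in Sen replicate 1, lay above values of 18.3 to 18.8.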

How the results depend on the processing

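With the replicate number as a replicate block, added after seeing the data, single-end Sen held on average 126.5 members more than sip300/CBP (exact permutation p = 0.5, the lowest 2 pairs allow) and 18 more than sip65 (p = 1); the shares over regions come from no test. The number of members was 820 at a −log10 q of at least 5, 555 with 50% coverage and 913 with 500 bp windows, but 1631 with lists of equal length and 1537 with Sen replicates 3 and 4 only; leaving out a replicate gave 851 to 1714, the highest without siFOXF1/2 replicate 2. Members without a JUN-family knockdown peak made up 20.05% with lists of equal length (5.54% of all shared regions), 52.8% with 50% coverage (21.1%) and 42.1% with windows (11.8%). They made up 50.5% with Sen replicates 1 and 2 only (13.2%), 37.2% with replicates 3 and 4 only (12.3%) and 40.3% to 54.9% without a replicate. For p300/CBP knockdown the shares were 60.0% with equal lengths (24 of 40 members, beside 15.6%) and 50.0% with 50% coverage (4 of 8 members, beside 37.0%). They were 53.2% with windows (10.7%), 55.1% with Sen replicates 3 and 4 only (10.6%) and 46.6% to 80.7% without a replicate. For p65 knockdown they were 50.0% with 50% coverage (45.5%) and 27.0% to 78.1% without a replicate. Where a knockdown or single-end library was left out, the shares over all shared regions moved too, as given above. The median log2 Pro to Sen ratio was -0.25 with equal lengths, 0.20 with 50% coverage, 0.32 with Sen replicates 3 and 4 only, -0.013 when scaled on regions held in all 10 lists and -0.083 to 0.19 without a replicate. The members' Sen height, 19.1 as reported, was 30.0, 22.2 and 20.1 with equal lengths, 50% coverage and windows, 18.3 and 16.0 with Sen replicates 1 and 2 or 3 and 4 only, and 17.1 to 20.6 without a replicate; scaled, it was 0.430 of the median of regions held in all 10 lists. A height-to-floor ratio of at least 2 was reached by 585 members, by 263 with the local floor and by 672 when scaled. Apart from fewer peaks or libraries entering, the cause of these moves was not tested. Of 33 named members, 30 stayed members at the stricter −log10 q, 18 with equal lengths, 14 with 50% coverage, 32 with windows and 33 in the other settings. The shares for p300/CBP and p65 knockdown rest on the 96 members that both single-end Sen lists held; for other members only values per library or per site are given.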
